A study of Mus musculus with 4 samples.

Results

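Transcripts of 10 genes of the mouse cytochrome P450 subfamily Cyp2c were followed in mouse liver with and without the Cyp3a gene cluster. The genes were Cyp2c29, Cyp2c37, Cyp2c38, Cyp2c39, Cyp2c40, Cyp2c44, Cyp2c50, Cyp2c54, Cyp2c55 and Cyp2c65, found on the array by the RefSeq accession that each probe carries. Of these 10 genes, 9 had at least 1 probe, with 13 probes in all, among 21153 genes that a probe could be named for. Cyp2c44 is listed in RefSeq as Cyp2c23 and was matched through its older symbol, and no probe was matched to Cyp2c40. The study measured total liver RNA of 2 wild type and 2 Cyp3a-/- livers, labelled with Cy3 and hybridised to 1 Agilent array per liver. The labels speak of repeated experiments with different animals and ask what loss of the Cyp3a cluster does to liver transcripts. How the cluster was deleted and the strain, sex, age and diet of the mice are not given in the sources used here.

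Cyp2c enzymes sit in the endoplasmic reticulum of hepatocytes and oxidise drugs, steroids and fatty acids, with electrons passed on by P450 oxidoreductase (Por). Several mouse members turn arachidonic acid into epoxides or hydroxylated products that act as signalling lipids. CAR (Nr1i3) and PXR (Nr1i2), nuclear receptors that sense drugs and bile acids, are known to switch on some Cyp2c genes together with Cyp2b10 and Cyp3a11, and HNF4A is a hepatocyte factor that maintains many P450 genes. The subfamily arose by repeated duplication on chromosome 19, so its members are close copies, and an array probe can bind transcripts of more than 1 of them.

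The promoters of the members with the highest fitted changes are shown here. They were taken from RefSeq (GRCm38.p6) and run from 250 bases before to 50 bases after the annotated start. Sequence further from the start was not searched. Capitals mark AGGTCA or AGTTCA, the half-sites that nuclear receptors such as CAR and PXR bind, and CAAAGT, the core of many HNF4A sites, on either strand. The windows are chr19:39006769-39007068 (plus strand) for Cyp2c55, chr19:39463026-39463325 (minus strand) for Cyp2c38, chr19:39347096-39347395 (plus strand), the first of 2 listed starts, for Cyp2c39, and chr19:39286835-39287134 (plus strand) for Cyp2c29.
Cyp2c55: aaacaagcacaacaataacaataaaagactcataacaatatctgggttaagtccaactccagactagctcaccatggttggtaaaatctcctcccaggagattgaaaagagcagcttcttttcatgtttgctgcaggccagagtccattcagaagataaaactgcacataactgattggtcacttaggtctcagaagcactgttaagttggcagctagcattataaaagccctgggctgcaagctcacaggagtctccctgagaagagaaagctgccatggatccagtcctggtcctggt
Cyp2c38: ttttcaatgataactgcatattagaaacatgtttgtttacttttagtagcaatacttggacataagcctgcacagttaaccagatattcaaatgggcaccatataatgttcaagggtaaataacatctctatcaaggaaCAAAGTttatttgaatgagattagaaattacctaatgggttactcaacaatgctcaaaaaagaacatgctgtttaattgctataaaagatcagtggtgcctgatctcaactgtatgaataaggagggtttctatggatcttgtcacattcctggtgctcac
Cyp2c39: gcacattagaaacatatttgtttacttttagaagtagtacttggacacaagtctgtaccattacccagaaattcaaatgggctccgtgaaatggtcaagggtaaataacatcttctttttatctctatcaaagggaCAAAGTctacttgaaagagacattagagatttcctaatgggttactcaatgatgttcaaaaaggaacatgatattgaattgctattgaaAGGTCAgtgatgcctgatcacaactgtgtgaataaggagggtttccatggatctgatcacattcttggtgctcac
Cyp2c29: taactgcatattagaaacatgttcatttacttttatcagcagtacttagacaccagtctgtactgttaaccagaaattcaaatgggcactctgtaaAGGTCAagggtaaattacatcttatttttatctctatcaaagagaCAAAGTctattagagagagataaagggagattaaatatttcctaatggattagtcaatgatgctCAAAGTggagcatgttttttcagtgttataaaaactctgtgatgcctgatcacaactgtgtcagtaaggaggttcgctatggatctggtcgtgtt

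A promoter was listed for 8 of the 10 genes, and CAAAGT was found in 7 of these 8, where 14.4% of 32544 distinct mouse promoter windows of the same length hold it. Cyp2c55 was the member without it. AGGTCA was present in 2 of the 8, against 16.2% of all windows. These were Cyp2c29 and, only at the first of its 2 listed starts, Cyp2c39. AGTTCA was present in 3 of the 8, against 14.0% of all windows. These were Cyp2c40, Cyp2c50 and, only at the other listed start, Cyp2c39. TATAAA, the core of the TATA box, was found in 6 of the 8, against 13.6% of all windows. Its first base lay at -29 in Cyp2c55, -31 in Cyp2c38 and -19 in Cyp2c29, but at -162 in Cyp2c65, at 41 in Cyp2c40 and, only at the other listed start, at -3 in Cyp2c39. No member window (0 of 8) held a pair of these half-sites in the same orientation with any 4 bases between them, in any combination of AGGTCA and AGTTCA and on either strand. Only 0.0277% of all windows hold such a pair, so 0 of 8 says nothing particular of these genes. These matches share ancestry: aligned without penalty for end gaps, the Cyp2c38 window was 86.3% identical to that of Cyp2c39 and 81.3% to that of Cyp2c29, and Cyp2c37 was 89.5% identical to Cyp2c50. The Cyp2c55 window was 64.8% identical to that of Cyp2c38 and at most 74.4% identical to that of any other member, Cyp2c37.

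Signals are given as log2 of the processed intensity after subtraction of each array's own 75th percentile, which lay between 308 and 352 in intensity units. The share of probes flagged as well above background ran from 54.4% to 56.4%, and the saturated spots numbered 0 on each array. The Cyp3a genes checked the labels: of 8 listed, 6 were tested and all 6 fell, with 0.0977% of all features called lower. Each of the 6 lay between -7.17 and -5.49 in the Cyp3a-/- livers, where none was well above background. All 6 hepatocyte markers, Alb and Ttr among them, were well above background in every liver. Both wild type arrays lay on slide 1 and the Cyp3a-/- arrays on slides 2 and 3. No slide held both genotypes, so a slide effect and a genotype effect cannot be told apart. A value with slide as a random block is given where it matters, but it cannot separate them.

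Cyp2c55, which hydroxylates arachidonic acid and is known from the mouse colon as well as from liver after CAR or PXR activation, rose in Cyp3a-/- liver. Its processed intensity was 149 and 307 in wild type 1 and 2, and 10053 and 7041 in Cyp3a-/- 1 and 2. On the scaled log2 axis these were -1.06 and -0.20 against 5.0 and 4.51. Both Cyp3a-/- livers stood far above both wild type livers, and the gap between genotypes was several times the gap within either. The mean went from -0.63 ± 0.61 to 4.76 ± 0.34 (SD, n = 2 each), a log2 fold change of 5.39 ± 0.34 (SE), or 41.9-fold (limma, adjusted p = 0.0086; 95% interval 4.53 to 6.25). It ranked 4 from the top among 17406 features by log2 fold change. The probe was well above background in all 4 livers, so the fold is measured and not a bound. The call held with slide as a random block (adjusted p = 0.023) but was lost without wild type 1 (adjusted p = 0.113, log2 fold change 4.96), without wild type 2 (0.080, 5.82) and without a filter on dim probes (0.070). With 1 wild type liver left out, the other is assumed to vary like the Cyp3a-/- livers. In whole liver a change in cell composition and a change in RNA per cell cannot be told apart.

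**Figure D1:**
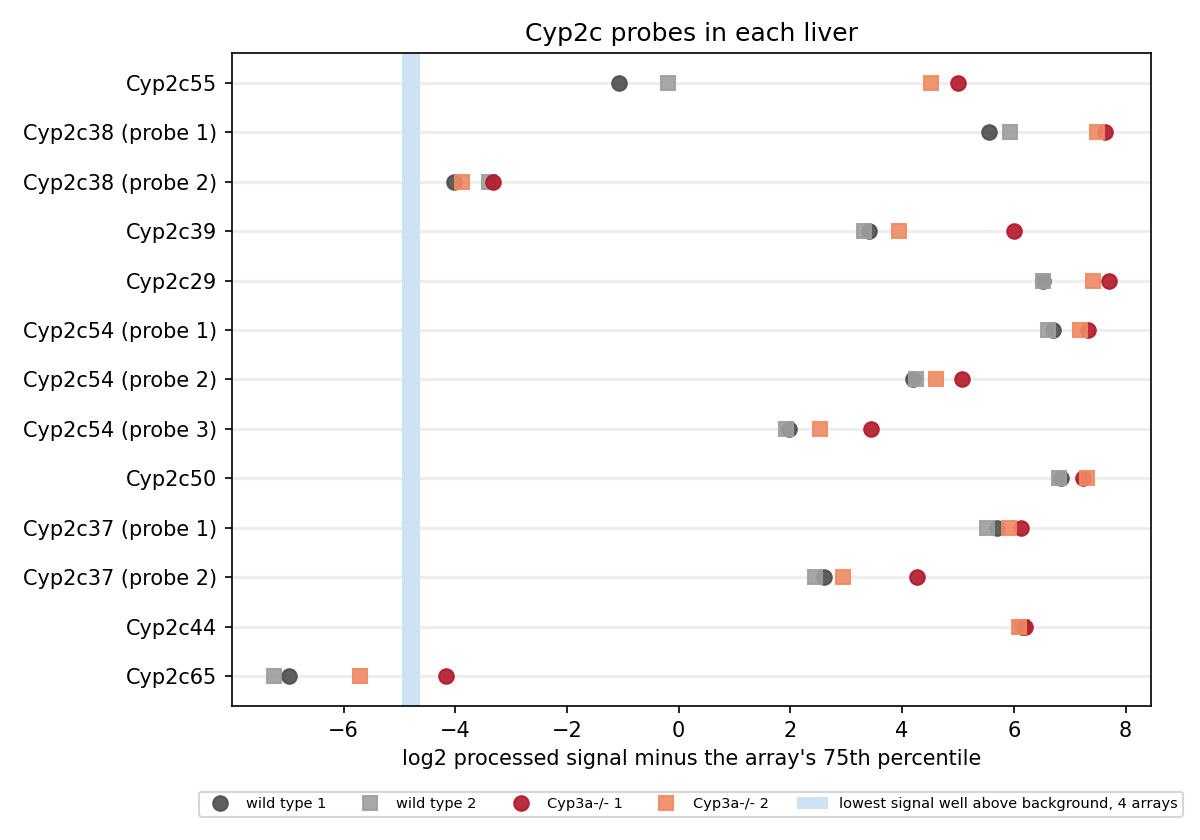
Log2 processed signal minus the array's 75th percentile for each of the 13 Cyp2c probes, 1 point per liver (grey, wild type; red and orange, Cyp3a-/-). Where a gene has several probes they are numbered from the brightest. The blue band spans the lowest signals that were well above background on the 4 arrays. The Cyp2c55 points of the genotypes stand widest apart, while the 4 Cyp2c44 points lie on top of each other and Cyp2c65 passes the band in Cyp3a-/- 1 alone.

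Cyp2c38, an arachidonic acid epoxygenase, had the next highest fitted change. Its brighter probe read 5.56 and 5.94 in the wild type livers and 7.62 and 7.49 in the Cyp3a-/- livers. The genotypes did not overlap, and the Cyp3a-/- livers lay closer to each other than the wild type livers did. The log2 fold change was 1.81 ± 0.21 (SE; 3.5-fold, 95% interval 1.29 to 2.33), which did not pass over all features (limma, adjusted p = 0.062). It did pass with normexp background correction (adjusted p = 0.028), with an intensity trend in the variance prior (0.0067) and with median scaling (1.2e-06). With median scaling every gene took the same variance, so the gene's own spread did not enter. Without Cyp3a-/- 2 the adjusted p was 0.026, with the spread taken from the wild type livers and the variance prior. A second Cyp2c38 probe gave another picture. It read -4.03 and -3.40 in wild type and -3.32 and -3.88 in Cyp3a-/- liver, so the livers overlapped. Its log2 fold change was 0.12 ± 0.30 (95% interval -0.63 to 0.87, adjusted p = 0.915 over all kept probes), at signals not far above the lowest that counted as well above background (-4.93 to -4.65 on the 4 arrays). The value for Cyp2c38 therefore rests on 1 of its 2 probes, and the mean of both was 0.96.

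Cyp2c39, an epoxygenase that also hydroxylates retinoic acid, differed strongly between the Cyp3a-/- livers. It read 3.41 and 3.32 in the wild type livers, 6.01 in Cyp3a-/- 1 and 3.94 in Cyp3a-/- 2. Both Cyp3a-/- values lay above both wild type values, but Cyp3a-/- 1 stood 2.06 above Cyp3a-/- 2. The log2 fold change was 1.61 ± 0.64 (95% interval 0.0029 to 3.22), and the test was not passed (limma, adjusted p = 0.499). It was 2.64 from Cyp3a-/- 1 alone and 0.58 from Cyp3a-/- 2 alone, so Cyp3a-/- 1 decided its size. The adjusted p of 0.0069 for Cyp3a-/- 1 alone takes its spread from the nearly equal wild type livers and the variance prior, and says nothing of the spread among Cyp3a-/- livers. With median scaling and all 4 livers it passed (adjusted p = 2.8e-05), but there every gene took the same variance. The wide gap between the Cyp3a-/- livers therefore did not enter that p-value.

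Cyp2c29, an abundant liver epoxygenase, was printed as 10 spots on each array, which gives a direct reading of the error among spots within an array. Its spots averaged 6.52 in wild type 1, 6.51 in wild type 2, 7.70 in Cyp3a-/- 1 and 7.42 in Cyp3a-/- 2. The SD among the 10 spots of an array was between 0.045 and 0.077. Error between arrays or slides is not in it. The wild type spots spanned 6.43 to 6.61 and the Cyp3a-/- spots 7.31 to 7.79, so no spot of one genotype reached the range of the other. The Cyp3a-/- livers differed from each other by 0.28 and the wild type livers by 0.01. The log2 fold change was 1.04 ± 0.19 (SE; 2.06-fold, 95% interval 0.57 to 1.52), which did not pass over all features (limma, adjusted p = 0.204; n = 2 livers per genotype, since spots are not replicates). It passed with median scaling (adjusted p = 0.025), where every gene took the same variance, and with the intensity trend (0.043).

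**Figure D2:**
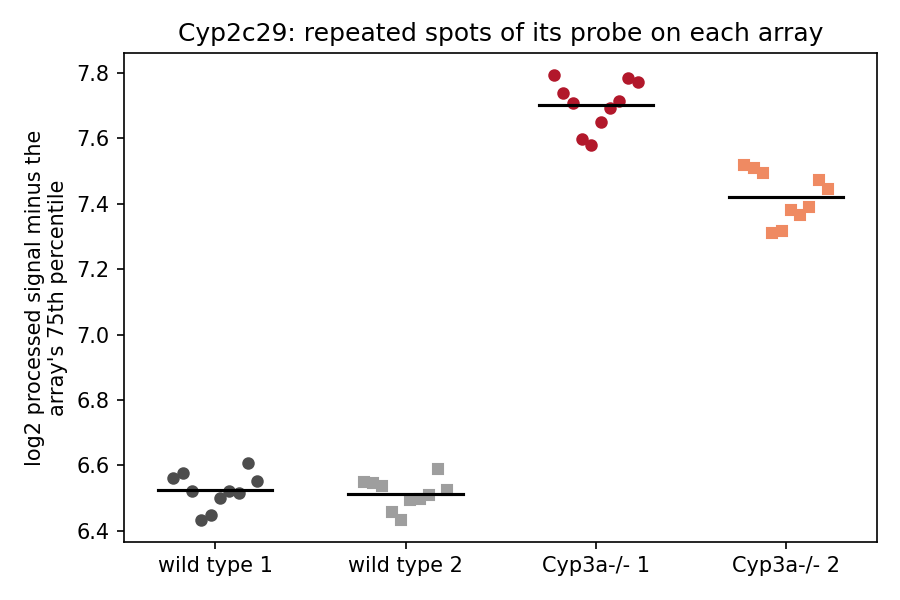
Log2 processed signal minus the array's 75th percentile for the 10 spots of the Cyp2c29 probe on each of the 4 arrays, with the mean of each array as a bar. The wild type spots lie between 6.43 and 6.61 and the Cyp3a-/- spots between 7.31 and 7.79.

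Cyp2c37, Cyp2c50 and Cyp2c54 lie next to each other on chromosome 19 and encode enzymes that oxidise arachidonic acid, Cyp2c37 mainly by hydroxylation and the others by epoxidation. None of these 3 genes passed the test (limma, 0 called, 2 of 3 at an unadjusted p under 0.05), although for each of them both Cyp3a-/- livers were above both wild type livers. Over all features 4.6% were higher at that unadjusted p, and 22.5% had both Cyp3a-/- livers above both wild type livers. Cyp2c54 read 6.70 and 6.62 in wild type and 7.32 and 7.18 in Cyp3a-/- liver by its brightest probe. Its log2 fold change was 0.59 ± 0.18 (95% interval 0.15 to 1.03, adjusted p = 0.378). Cyp2c50, with 1 probe, read 6.85 and 6.80 against 7.24 and 7.31. It stood at 0.45 ± 0.17 (95% interval 0.02 to 0.88, adjusted p = 0.487), and it was the member for which Cyp3a-/- 2 was the higher Cyp3a-/- liver. Cyp2c37 read 5.70 and 5.52 against 6.13 and 5.92 by its brighter probe. It stood at 0.42 ± 0.19 (95% interval -0.05 to 0.89, adjusted p = 0.551).

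The 3 further probes of Cyp2c37 and Cyp2c54 all gave a higher fitted change than the gene's brightest probe, 1 of them by only 0.02. The second Cyp2c37 probe read 2.60 and 2.44 in wild type, 4.26 in Cyp3a-/- 1 and 2.95 in Cyp3a-/- 2, a log2 fold change of 1.08 ± 0.43 (adjusted p = 0.490 over all kept probes). The third Cyp2c54 probe behaved alike, with 1.97 and 1.93 in wild type, 3.44 in Cyp3a-/- 1 and 2.52 in Cyp3a-/- 2, a log2 fold change of 1.03 ± 0.32 (adjusted p = 0.387). On both probes Cyp3a-/- 1 was well above Cyp3a-/- 2, by 1.31 and 0.92, where the brightest probes of the same genes put the livers 0.21 and 0.14 apart. The remaining Cyp2c54 probe gave 0.61 ± 0.22, close to the 0.59 of the brightest, with Cyp3a-/- 1 above Cyp3a-/- 2 by 0.47. Cyp2c39, as given above, showed the same order of livers on its single probe. Whether these probes read 1 transcript or several close copies was not tested.

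**Figure D3:**
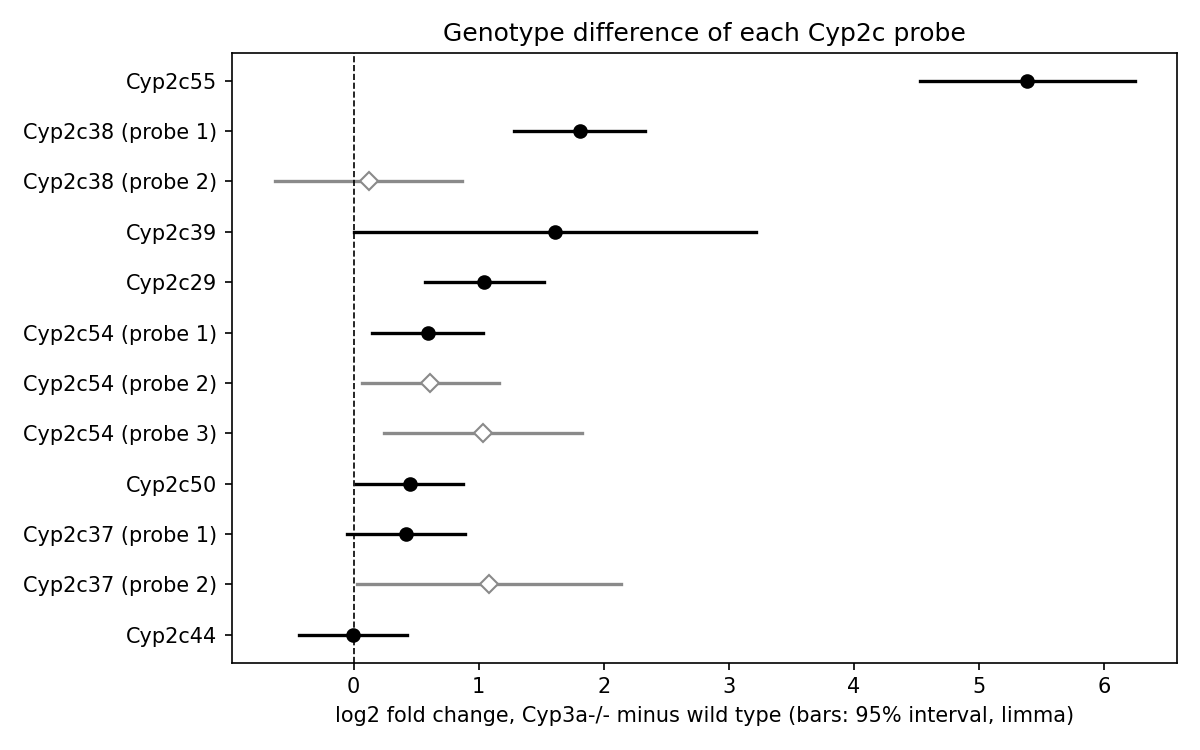
Log2 fold change, Cyp3a-/- minus wild type, of the 12 Cyp2c probes that were well above background, with 95% intervals from limma. Filled circles are the brightest probe of a gene, and open diamonds its further probes. The interval of Cyp2c55 (4.53 to 6.25) lies clear of all others, and the Cyp2c38 probes differ by 1.69.

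Cyp2c44, an epoxygenase known from kidney and vessels as well as liver, read nearly alike in the 4 livers. It stood at 6.15 and 6.14 in wild type and 6.19 and 6.08 in Cyp3a-/- liver, and the livers overlapped. The log2 fold change was -0.01 ± 0.17, with a 95% interval of -0.44 to 0.43 (limma, adjusted p = 0.996). Its sign turned with normexp background correction (0.0049) and with median scaling (0.025), and it was -0.17 with quantile normalization.

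Cyp2c65, known mainly from the mouse gut, was well above background in Cyp3a-/- 1 alone of the 4 livers. Its signals were -6.98 and -7.25 in wild type, -4.17 in Cyp3a-/- 1 and -5.70 in Cyp3a-/- 2. Both Cyp3a-/- values were the higher ones, but the Cyp3a-/- mean of -4.93 lay below the lowest measurable level of the wild type arrays (mean -4.79), so no fold is given and the gene was not tested. Cyp2c66, its neighbour on the chromosome and not among the 10 genes, was likewise well above background only in Cyp3a-/- 1 (-3.68, against -6.49, -5.16 and -4.32 elsewhere). Cyp2c40 had no probe and is not analysed here.

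Of the 9 genes with a probe, 8 passed the filter on dim probes, and each of these 8 did so in all 4 livers. Of the 8, 1 rose (Cyp2c55), 0 fell and 7 did not pass, while over all 17406 features 0.178% were called higher and 0.276% in either direction. Both Cyp3a-/- livers were above both wild type livers for 7 of the 8, against 22.5% of all features. At an unadjusted p under 0.05, 6 of the 8 were higher and 0 lower, against 4.6% of all features higher and 5.42% lower. The log2 fold change was above 0 for 7 of the 8, against 51.4% of all features. The median log2 fold change of the 8 was 0.82, beside 0.01 over all features. By probe the counts were 1 called of 12 (0.27% of all 21508 kept probes) and 10 of 12 without overlap and higher (22.2% of all kept probes). Close copies can share a probe's target, so these members do not count as separate observations.

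**Figure D4:**
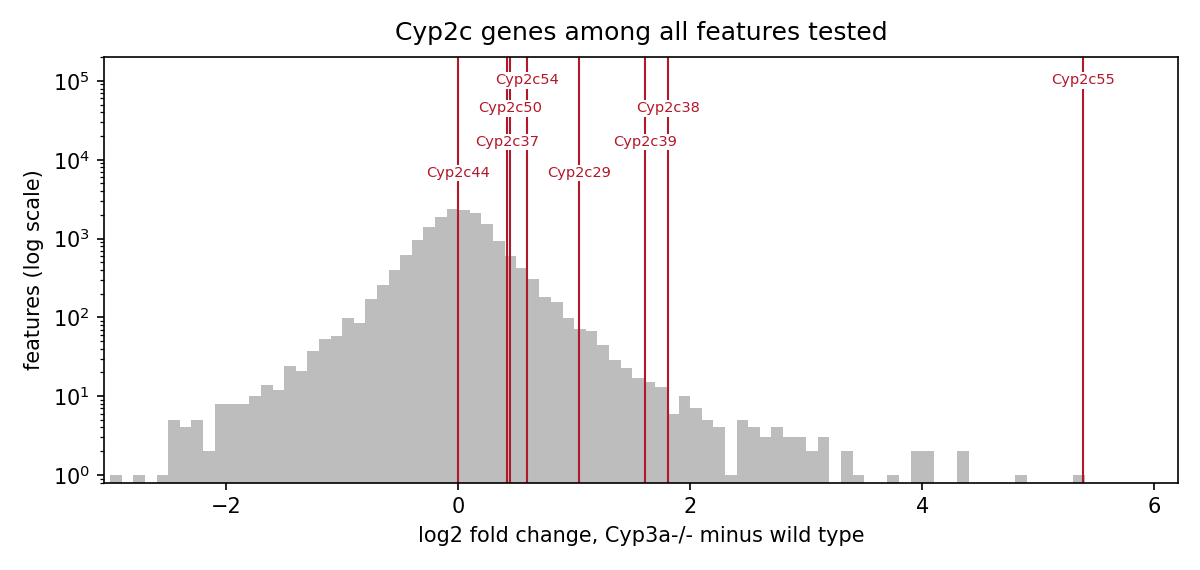
Histogram of the log2 fold changes (Cyp3a-/- minus wild type) of all features tested, on a log count axis, with the 8 tested Cyp2c genes as red lines. The axis runs from -3 to 6 and leaves out 16 features beyond it. Cyp2c44 lies at the middle of the distribution, Cyp2c55 at its right end, and the other members to the right of the middle.

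Cyp3a-/- 1 was the higher Cyp3a-/- liver for 7 of the 8 genes and 11 of the 12 probes, whereas it was the higher one for 44.9% of all features. Against the mean of the wild type livers, the median member stood at 0.92 in Cyp3a-/- 1 and 0.55 in Cyp3a-/- 2. The wild type livers differed little for most members. Their median absolute difference was 0.09 over the 8 genes and 0.20 over all features, with Cyp2c55 (0.86) and Cyp2c38 (0.38) the widest. The spread within Cyp3a-/- liver was widest for Cyp2c39, with an SD of 1.46. The wild type arrays shared slide 1, while the Cyp3a-/- arrays lay on slides 2 and 3. Spread between livers and spread between slides therefore cannot be told apart here.

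Along chromosome 19 the Cyp2c genes from Cyp2c55 to Cyp2c70 follow each other with no other protein-coding gene between them, and Cyp2c44 lies 52 protein-coding genes further on. The 3 neighbours Cyp2c29, Cyp2c39 and Cyp2c38 stood at 1.04, 1.61 and 1.81. Cyp2c39 is placed by its first listed start, and its other listed start (window chr19:39510572-39510871) lies beyond that of Cyp2c38. Next to them Cyp2c67 and Cyp2c68, which are not among the 10 genes, stood at 0.13 ± 0.22 and 0.11 ± 0.22, with livers that overlapped. Then Cyp2c37, Cyp2c54 and Cyp2c50 stood between 0.42 and 0.59. At the end of the run Cyp2c70, not among the 10 either and known for its action on bile acids, stood at -0.0023 ± 0.23. None of these 3 other genes was called (limma, 0 of 3, and 0 at an unadjusted p under 0.05), and their difference from the members was not tested.

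**Figure D5:**
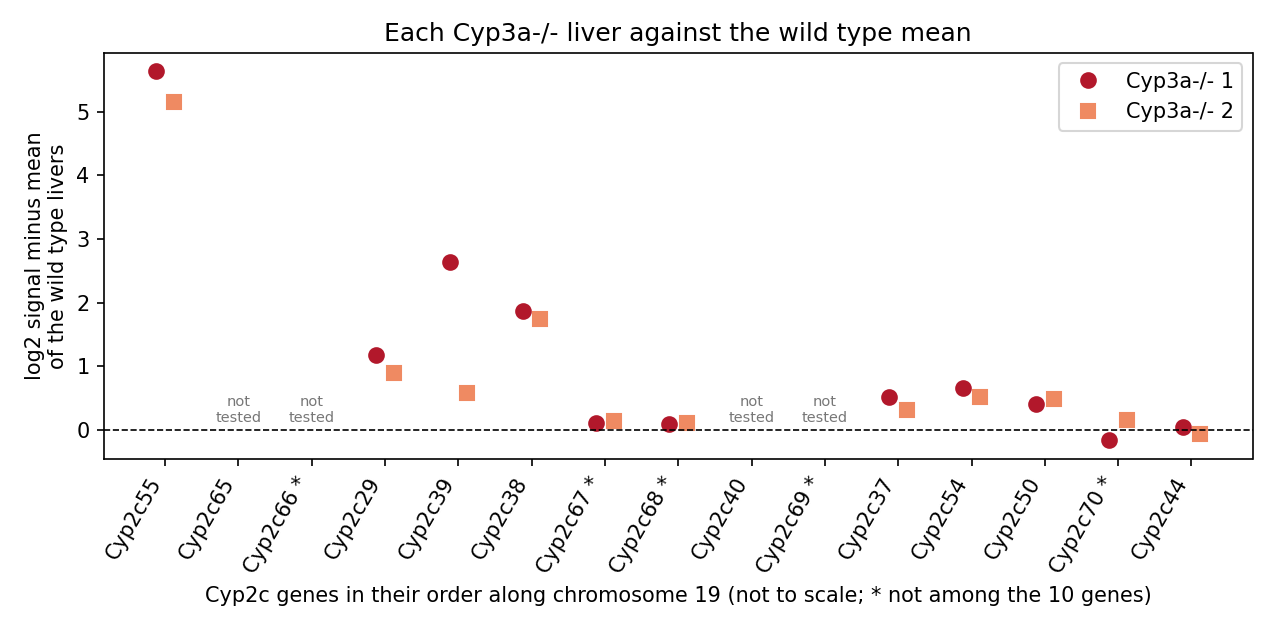
Log2 signal of each Cyp3a-/- liver minus the mean of the wild type livers for the Cyp2c genes in their order along chromosome 19, which is not drawn to scale. Cyp2c39 is placed by the first of its 2 listed starts. An asterisk marks genes outside the 10 described here. The points of Cyp2c55 stand at 5.63 and 5.15, those of Cyp2c39 at 2.64 and 0.58, and those of Cyp2c67 and Cyp2c68 near 0.

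Other genes that CAR and PXR switch on were set beside the Cyp2c genes. Of 33 listed, 28 were tested, 5 rose, 0 fell and 23 did not pass, with a median log2 fold change of 0.67 (all features 0.01). The 5 were Cyp2b10 (4.33 ± 0.23, adjusted p = 0.0040), the classic CAR target, the uptake transporter Slco1a4 (3.15 ± 0.23, 0.014), Cyp2b9 (4.0 ± 0.35, 0.023; well above background in 1 of 2 wild type livers), the aldo-keto reductase Akr1b7 (3.31 ± 0.32, 0.034) and the carboxylesterase Ces2a (1.76 ± 0.18, 0.040). Cyp2b9 passed the filter on dim probes only through the Cyp3a-/- livers, where it was higher, so its call carries that filter. Among 17 tested receptors and factors that act on Cyp2c genes none was called (limma, 0 of 17). At an unadjusted p under 0.05, 1 was higher and 3 were lower (4.6% and 5.42% of all features). Nr0b2, a repressor of liver metabolism genes, stood at -0.92 ± 0.26 (adjusted p = 0.344), Cebpb at 0.71 ± 0.20 (0.360) and Ppara, the receptor that senses fatty acids, at -0.59 ± 0.18 (0.389). The receptor genes themselves were added after their values were seen. Nr1i3, the gene of CAR, read 3.34 and 3.44 in wild type and 2.62 and 2.98 in Cyp3a-/- liver, a log2 fold change of -0.59 ± 0.20 (adjusted p = 0.444), and Nr1i2, the gene of PXR, stood at 0.14 ± 0.30 (adjusted p = 0.899).

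Genes that work with Cyp2c enzymes were not called either. In the electron supply 0 of 8 passed (limma), with 2 higher and 0 lower at an unadjusted p under 0.05. Por stood at 1.32 ± 0.20 (adjusted p = 0.137) and cytochrome b5 (Cyb5a) at 0.58 ± 0.17 (adjusted p = 0.380). In both, the Cyp3a-/- livers lay above the wild type livers without overlap, as in 22.5% of all features. At an unadjusted p under 0.05, 4.6% of all features were higher and 5.42% lower. Among 23 tested genes of arachidonic acid oxidation outside the subfamily, 0 passed (1 higher and 4 lower at an unadjusted p under 0.05; median 0.08). Cyp2j9, of another epoxygenase subfamily, stood at -0.75 ± 0.27 (adjusted p = 0.457), the fatty acid hydroxylase Cyp4a10 at -1.65 ± 0.51 (0.391), and the related Cyp4a14 at -3.96 ± 0.98 (adjusted p = 0.303), with 5.89 and 7.63 in wild type against 4.15 and 1.45. Of 10 tested genes of retinoid handling, in which Cyp2c39 is known to act, 0 passed (2 higher and 0 lower at an unadjusted p under 0.05). Aldh1a1, which makes retinoic acid, stood at 0.72 ± 0.20 (adjusted p = 0.338), the receptor gene Rarb at 0.71 ± 0.27 (0.475), and Lrat, which stores retinol as esters, at -0.44 ± 0.19 (0.532).

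Since several Cyp2c genes are known to differ between the sexes, sex-biased liver genes were listed too. Of 11 tested male-biased genes 1 rose, Moxd1 (limma, adjusted p = 0.017), whose wild type signals were not well above background, and 10 did not pass (median 0.13). At an unadjusted p under 0.05, 3 of the 11 were higher and 0 lower (4.6% and 5.42% of all features). The next by p were Susd4 at 1.51 ± 0.24 (adjusted p = 0.152), Ugt2b1 at 1.16 ± 0.21 (0.203) and Hsd3b5 at 0.30 ± 0.18 (0.633). The fitted change was above 0 for 8 of the 11, against 51.4% of all features. Over all features 0.178% were called higher. Moxd1 passed the filter only through the Cyp3a-/- livers, where it was higher, so its call, these counts and the median also carry that filter. Of 11 listed female-biased genes 4 were tested and 1 rose, Cyp2b9, also counted among the CAR and PXR targets, while 3 did not pass (median 1.08). These 3 were Abcd2 at 1.48 ± 0.60 (adjusted p = 0.50), Cyp2a4 at 0.67 ± 0.34 (0.584) and Cyp17a1 at 0.27 ± 0.37 (0.831), and all 4 values were above 0. Cyp2b9 and Abcd2 were each well above background in wild type 2 but not in wild type 1. They passed the filter only through the Cyp3a-/- livers, where they were higher, so the median and the signs also carry that filter. The genes nearest to Cyp2c55 in pattern, by root mean square distance of the 4 livers after the wild type mean was set to 0, were Sult2a7 (0.53), Cyp2b10 (0.84), Cyp2b9 (1.07), Tmeff2 (1.12) and Moxd1 (1.14), in log2 units. This likeness rests on 4 livers and on the size of the rise, and Tmeff2 and Moxd1 were not well above background in wild type liver.

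Markers of cells in which Cyp2c genes are known were checked in the same livers. Of 10 intestinal epithelium markers, 3 or 4 were well above background in each liver, and Cdx1, Cdx2, Muc2, Slc26a3 and Lypd8 were so in none. Their summed signal was 39.6 and 43.7 times the array's 75th percentile in wild type and 39.8 and 42.2 times in Cyp3a-/- liver, so the genotypes overlapped. Most of each sum was Fabp2 (log2 signal 5.2 and 5.3 in wild type, 5.2 and 5.3 in Cyp3a-/- liver), so the overlap is mainly that of Fabp2. Of 3 tested intestinal markers 0 passed (limma, 1 higher and 1 lower at an unadjusted p under 0.05). At that unadjusted p 4.6% of all features were higher and 5.42% lower. Lgals4 stood at -0.92 ± 0.17 (adjusted p = 0.212), Car1 at 0.92 ± 0.18 (0.234) and Fabp2 at 0.01 ± 0.18 (0.992). The summed signal of 8 pericentral hepatocyte markers, mostly that of Cyp2e1, was 639 and 594 in wild type, 636 in Cyp3a-/- 1 and 771 in Cyp3a-/- 2. Of 7 tested pericentral markers 0 passed (1 at an unadjusted p under 0.05), with Oat at 1.04 ± 0.29 (adjusted p = 0.344). For 8 periportal markers the sums were 892 and 894 in wild type and 900 and 1075 in Cyp3a-/- liver. Macrophage, stellate cell, sinusoidal endothelium, lymphocyte and cholangiocyte markers had 0 called of 27 tested, and 3 of these were lower at an unadjusted p under 0.05. Their part in the Cyp2c values was not tested.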

How the data were processed

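The authors deposited scanner output of Agilent Feature Extraction 11.5.1.1 for each array, per the file headers and the processing notes of the submitters. Its processed intensity is background-subtracted and not normalized between arrays, and flags of 0 or 1 mark spots well above background, per the file headers. A second deposited table holds log2 values of unstated scale, which followed the scaled scanner values centred on each probe's median (correlation 1.00 after rounding, column medians 0.06, -0.07, -0.02 and 0.02). No per-sample column was left unused (0).

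Control spots and 113 to 148 outlier spots per array were left out. Processed intensity was taken to log2, scaled by subtracting the 75th percentile of its array, and averaged over the spots of a probe. A probe was kept if 1 genotype or both had it well above background in each liver, each gene standing by its brightest, which gave 17406 features. Probes were named by RefSeq accession (28025 with 1 symbol, 11404 without). Limma 3.58.1 in R 4.3.3 (2-sided, Benjamini-Hochberg over all features, threshold 0.05) compared genotypes, and the fit was tested on simulated data. Prior degrees of freedom were 3.54, beside 2 residual. Promoters were aligned with Biopython 1.88. Same-numbered livers did not deviate together (correlation -0.10), so the main fit has no replicate block. The 2 arrays per genotype limit the precision, and p-values measure the spread between these 4 livers. The members, lists and rule for naming genes (all members, and in each list those called and up to 3 more by p) were chosen with earlier results of these data known.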

Additional observations from a re-analysis of the deposited data

How the results depend on the processing

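The number of genes called changed with the processing more than the Cyp2c values did. Of 17406 features 48 were called. The count was 659 with median scaling, where the prior degrees of freedom became infinite and every gene took the same variance, 13 without a filter on dim probes and 9 with a filter that required all 4 arrays, and it ran from 7 to 506 when single livers were left out, which leaves 1 liver in a genotype that is assumed to vary like the other genotype. For the Cyp2c genes, 1 was called of 8. It was 2 with normexp, 4 with median scaling, 3 with an intensity trend and 0 without a filter, and between 0 (without either wild type liver) and 3 (without Cyp3a-/- 2) when single livers were left out. The median log2 fold change of 0.82 was 0.62 with quantile normalization and 1.04 without a filter, where Cyp2c65 entered, and 0.55 to 0.92 with single livers left out. Without Cyp3a-/- 2 the calls of Cyp2c38 and Cyp2c39 thus rest on the spread of the wild type livers. Cyp2c44 turned its sign to 0.0049 with normexp, 0.025 with median scaling and 0.050 without Cyp3a-/- 2, its range with single livers left out being -0.060 to 0.050. Apart from these 3 settings for Cyp2c44, no tested Cyp2c gene changed its sign under the 15 settings computed per gene. The fits with a block, the intensity trend and the other filters left each gene's log2 fold change as it was. The second deposited table nearly did so, and these settings therefore do not bear on the sign. With the replicate number as a block 58 features were called, and the count of Cyp2c genes stayed at 1. Because same-numbered livers deviated apart, a crossed pairing was added after seeing the data, with 56 features and 1 Cyp2c gene called. Limma's duplicateCorrelation gives no estimate with 4 arrays, so the slide correlation was taken as 0.35 from the median squared differences within and between slides, which gave 33 features and 1 Cyp2c gene. The pair within a slide was the wild type livers and the pair between slides the Cyp3a-/- livers. This correlation therefore also holds any difference in spread between the genotypes. The causes of the other shifts were not tested.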
